A study of Mus musculus with 19 samples.

Results

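Mouse embryonic fibroblasts that lack Sec24d were depleted of Sec24a, Sec24b and Sec24c with siRNA for 48 h (triple knockdown, 5 libraries) and were set against the same knockout cells given 150 nM scrambled siRNA for 48 h (5 libraries). These 10 libraries were chosen by their labels from 19. The other libraries came from the same cells with siRNA against Sec24b alone (Sec24B knockdown, 5 libraries) or with 50 nM scrambled siRNA (4 libraries), and served to share the estimate of spread and to test where the effects of the knockdowns differed. All 4 groups carry the Sec24d knockout, so a change below is one added to that knockout, and cells with Sec24d intact were not analysed here. The cells are labelled as a single line, MEF Sec24D knockout, kept in DMEM with fetal bovine serum and transfected with Lipofectamine RNAiMAX. The labels do not say whether the line is 1 clone or whether replicates were separate cultures, so p-values reflect only how these libraries vary, which may be technical. The 50 nM that the protocol gives for SEC24 siRNA may be per siRNA or in total, and the protocol has RNA collected the day after the medium change although the labels give 48 h. Doses and library names were the basis for setting the triple knockdown against 150 nM rather than 50 nM scrambled siRNA. The table holds 19716 genes, and the 19635 that reached a value of 1 in 4 or more libraries were tested.

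SEC24 proteins are the subunits of the COPII coat that recognise cargo as it leaves the endoplasmic reticulum (ER) for the Golgi. The coat is built by the small GTPase SAR1, an inner layer of SEC23 and SEC24, and an outer cage of SEC13 and SEC31, and it carries collagens, receptors and membrane-bound transcription factors. When secretory proteins accumulate in the ER, the sensors IRE1, PERK and ATF6 start the unfolded protein response. PERK shares with the kinases GCN2, HRI and PKR the phosphorylation of the initiation factor eIF2, which favours translation of ATF4 and is called the integrated stress response. ATF6 and the sterol sensor complex of SREBP and SCAP themselves travel from the ER to the Golgi in COPII vesicles before they are cleaved and reach the nucleus.

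Levels are normalised counts, that is read counts divided by 1 factor per library, so that each read adds 0.736 to 1.638; they are not corrected for gene length and are compared here between libraries, not between genes. The control libraries held 9101855 to 15719649 reads and the triple knockdown libraries 12919930 to 17352612. Means are given ± SD over 5 libraries, and differences as log2 fold changes ± SE on the log2(normalised count + 1) scale from a limma fit of all 19 libraries; a bare value ± SE after "by" or in parentheses is such a log2 fold change. P-values are limma's, two-sided and adjusted by Benjamini and Hochberg over all 19635 genes, and a gene passed below 0.05. All 11 fibroblast markers were above 0 in all 10 libraries; their summed level was 465211 to 564575.1 in the control libraries and 319337.8 to 347146.1 in the triple knockdown. Summed levels of 5 leukocyte markers were 431.6 to 512.6 and 249.8 to 298.1, of 6 endothelial markers 130.7 to 149 and 87.4 to 194.8, and of 5 epithelial markers 33.2 to 55.7 and 20.8 to 42.7. The 4 skeletal muscle markers summed to 197.1 to 269.9 and 234.6 to 312.8, and the 3 neural markers, nearly all Nes, to 4479.7 to 5517 and 2476.3 to 3576.8. In bulk RNA fewer cells of a type and less RNA per cell cannot be told apart.

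Triple knockdown libraries 1 and 5 stood apart from the other 3. On the first principal component, which held 37.7% of the variance, they lay at -43.57 and -32.58, against -18.7 to -20.3 for the others and 7.37 to 12.4 for the control libraries. Their deviations followed transcript length: among genes with a mean of at least 100, those with a longest transcript under 1000 bases deviated from the control by a median log2 of 0.675 and 0.361 in libraries 1 and 5, and those of 8000 bases and over by -0.523 and -0.371. In the other triple libraries these medians lay between -0.084 and 0.102. Whether RNA quality or library preparation had a part in any result was not tested. Counts and medians of the lists that are printed below are also given without these libraries where the printed value moved by over 1.5 times. The same was done where a direction with no call gained one. List medians and counts that are not printed moved as well in some lists.

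In the triple knockdown 3307 genes rose, which is 16.8% of those tested, and 3373 fell, which is 17.2%, so that 34.0% changed. The median log2 fold change over all genes was 0.012, against which the list medians below are to be read. At least 2-fold changes were found for 432 risen and 462 fallen genes. Calls depended on level: of 5829 genes with a mean under 10, 231 rose and 224 fell. Of 3600 genes with a mean of 1000 or more, 800 rose and 1183 fell. The list counts below are to be read beside the 16.8% and 17.2% of all genes, and were not matched for level. Lists and members were chosen with earlier results of these data known, so no list count is a test against these shares. The values of the groups did not overlap for 4278 genes (21.8%). Without triple libraries 1 and 5, 2900 genes rose, 375 of them at least 2-fold, and 3135 fell, 380 at least 2-fold, and 5130 of the 6680 changed genes passed in the same direction. The groups then did not overlap for 6267 genes, a count that fewer libraries raise by construction. In the authors' deposited table a total of 6635 tested genes have an adjusted p below 0.05 for the same comparison, 6354 of them changed in the same direction here. The change differed from that of the Sec24B knockdown, measured against its own 50 nM control, for 3107 genes (15.8%), with the triple effect above the Sec24B effect for 1461 and below it for 1646, and for 3897 genes without triple libraries 1 and 5.

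**Figure D1:**
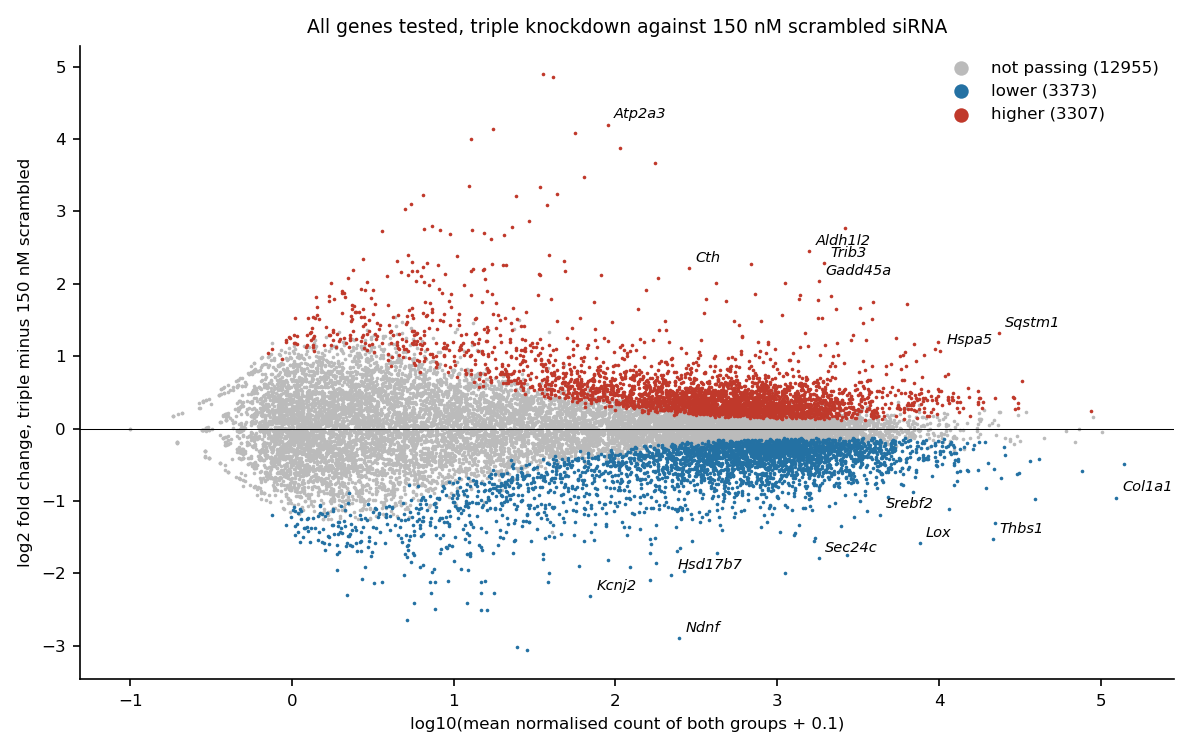
Log2 fold change (triple knockdown minus 150 nM scrambled siRNA, vertical) against log10 of the mean normalised count of both groups (horizontal, 0.1 added) for the 19635 genes tested. Red points are the 3307 genes that rose, blue points the 3373 that fell and grey points the rest; labelled genes are described in the text.

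The targeted genes were checked first; their positions are given as in the table, on GRCm38. Sec24c (ENSMUSG00000039367, chr14:20674308-20694852) had 2705, 2781, 2951, 2736 and 2800.1 normalised counts in the control libraries and 775, 829, 834, 858 and 752 in the triple knockdown. Every triple library lay below every control library, and the log2 fold change was -1.79 ± 0.05 (limma, adjusted p = 1.21e-17). Sec24b (ENSMUSG00000001052, chr3:129982759-130061553) had 1253, 1219, 1256, 1159 and 1223 in the controls and 369, 531, 606, 603 and 436 in the triple knockdown, and Sec24a (ENSMUSG00000036391, chr11:51692264-51763634) had 888, 732, 782, 787 and 812 in the controls and 299, 579.9, 583, 572 and 403 in the triple knockdown. Both fell without overlap of the groups, with log2 fold changes of -1.29 ± 0.10 for Sec24b (adjusted p = 1.31e-10) and -0.76 ± 0.13 for Sec24a (adjusted p = 4.94e-05). The remaining RNA was therefore smallest in proportion for Sec24c and largest for Sec24a, whose lowest library was replicate 1; without triple libraries 1 and 5 the Sec24a value was -0.47. In the Sec24B knockdown the log2 fold change of Sec24b was -1.21 ± 0.10, and the difference between the knockdowns for this gene did not pass (-0.07 ± 0.14, adjusted p = 0.788). Sec24d, the gene knocked out in all groups, still had reads, with 485, 447, 501, 446 and 447 in the controls and 223, 563, 491, 541 and 440.3 in the triple knockdown. Its level did not pass the test (-0.11 ± 0.16, adjusted p = 0.651), and its sign turned without triple libraries 1 and 5 (0.19); reads outside the disrupted stretch, whose position the labels do not give, check nothing about the knockout.

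**Figure D2:**
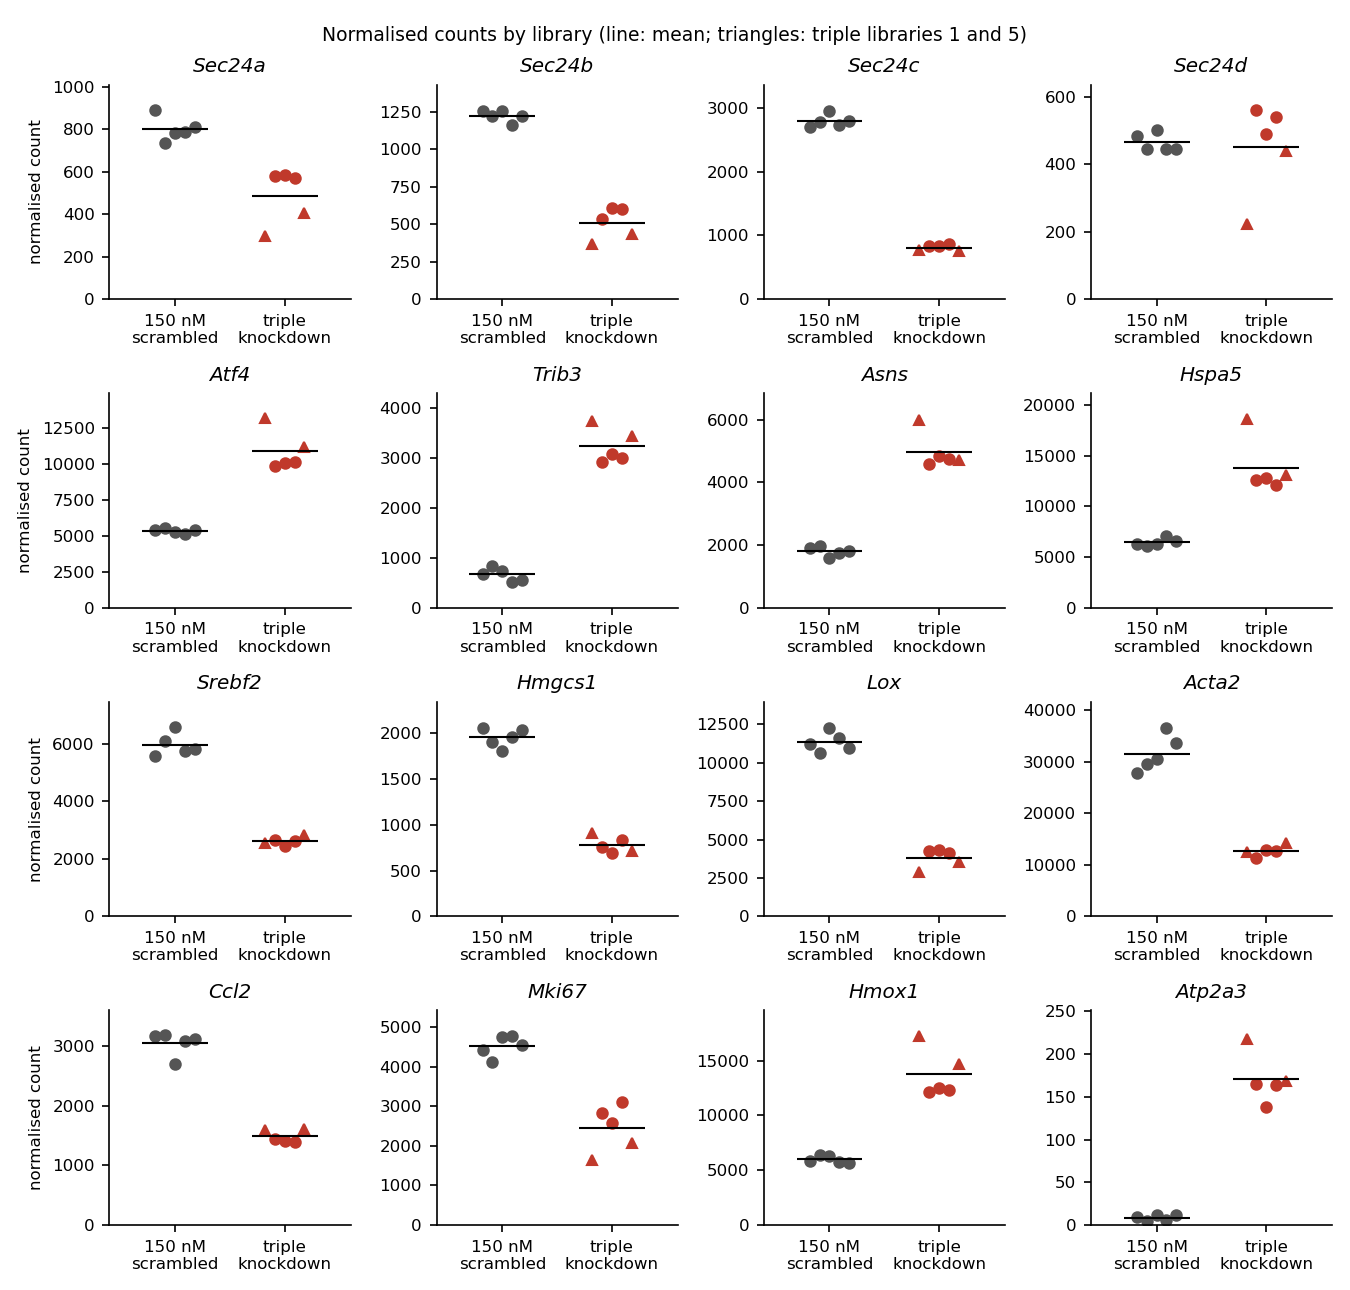
Normalised counts of 16 genes in each of the 5 control and 5 triple knockdown libraries (points; triangles mark triple libraries 1 and 5; lines are means; linear axes from 0). The groups are separate for every gene shown except Sec24d.

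The rest of the COPII coat mostly did not fall with SEC24. Of 16 other coat and exit site genes 8 rose, 1 fell and 7 did not pass, with a median log2 fold change of 0.18. Sar1b, which encodes a GTPase that starts coat assembly, had 747, 658, 611, 666 and 676 in the controls and 1205, 1082, 904, 964 and 876 in the triple knockdown. Every triple library lay above every control library, with a log2 fold change of 0.57 ± 0.08 (adjusted p = 4.86e-06). Sec31a of the outer cage rose by 0.32 ± 0.05 (adjusted p = 2.16e-05), the exit site scaffold Sec16b by 0.40 ± 0.07 and Mia2, a gene of the TANGO1 family that helps export large cargo, by 0.52 ± 0.06. Of 24 cargo receptors and ER export SNAREs 9 rose and 2 fell. The SNARE Bet1, which takes part in fusion of ER vesicles at the Golgi, rose from 196 ± 20.9 to 349 ± 29.1 (log2 fold change 0.83 ± 0.09), its partner SNAREs Gosr2 and Stx5a rose by 0.50 ± 0.05 and 0.45 ± 0.06, and Mcfd2, the partner of the lectin LMAN1, by 0.48 ± 0.07. Ergic1 fell (-0.27 ± 0.06), while the receptors Surf4 (0.11 ± 0.05, adjusted p = 0.131) and Lman2 (-0.04 ± 0.05, adjusted p = 0.633) did not pass.

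Most genes of the COPI coat, which returns vesicles from the Golgi to the ER, rose. In the main fit 10 of 11 passed upward, none fell, and the median was 0.27 (8 genes and 0.31 without triple libraries 1 and 5). When only the groups compared were fitted, 7 passed upward. Copb2 had 2712, 2568, 2590.0, 2988 and 2780.2 in the controls and 3701, 3828, 3799, 3880.0 and 3664 in the triple knockdown. These ranges are separate, and the log2 fold change was 0.47 ± 0.05 (adjusted p = 6.02e-08). The largest subunit gene Copa rose by 0.27 ± 0.06 and Cope by 0.52 ± 0.09. For Copb2 the Sec24B knockdown gave -0.05 ± 0.05 (difference adjusted p = 1.47e-05). Among 28 genes of Golgi structure and tethering 12 rose and 3 fell (11 and 1 without triple libraries 1 and 5), with a median of 0.07; the golgin Golga5 rose by 0.69 ± 0.05 and giantin, Golgb1, by 0.35 ± 0.06.

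The integrated stress response genes held some of the largest rises but did not rise as a set. Of 16 kinase and feedback genes 6 rose, 2 fell and 8 did not pass, with a median of 0.13. Atf4 had 5378, 5551, 5268, 5092 and 5401 in the control libraries and 13131, 9832, 10044, 10142 and 11169 in the triple knockdown. All 5 triple libraries were above all controls, and the log2 fold change was 1.02 ± 0.07 (adjusted p = 1.02e-11; 0.91 without triple libraries 1 and 5). Trib3, a pseudokinase that is a known ATF4 and CHOP target, had 681, 844, 744, 517 and 562 in the controls and 3747, 2912, 3079.7, 3006 and 3446 in the triple knockdown. It rose by 2.29 ± 0.10 (adjusted p = 5.90e-15). Ddit3, which encodes CHOP, had 1281, 1753, 1628, 1408 and 1389 in the controls and 8119, 3739, 3653, 3739.6 and 5613 in the triple knockdown. It rose by 1.67 ± 0.15 (adjusted p = 4.11e-09; 1.32 without triple libraries 1 and 5, its highest). Among other factors, the stress-induced bZIP factors Atf3 and Atf5 rose by 1.59 ± 0.09 and 1.74 ± 0.09. Ppp1r15a, which encodes the GADD34 subunit that leads eIF2 dephosphorylation, rose by 1.48 ± 0.12, and Cebpg, a dimer partner of ATF4, by 0.84 ± 0.11. None of the 4 eIF2 kinase genes passed upward over all 5 libraries: Eif2ak4 (GCN2) fell (-0.44 ± 0.10) with overlapping libraries, Eif2ak2 (PKR) fell (-0.36 ± 0.08), and Eif2ak3 (PERK) and Eif2ak1 (HRI) did not pass (0.15 ± 0.07 and 0.04 ± 0.06). Eif2ak3 passed upward without triple library 1 (0.22, adjusted p = 0.00433) and without triple libraries 1 and 5 (0.27, adjusted p = 0.000872).

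Effects on Atf4 and Trib3 were larger than in the Sec24B knockdown, where the log2 fold changes against 50 nM scrambled siRNA were 0.11 ± 0.07 and 0.54 ± 0.10. The differences between the knockdowns were 0.91 ± 0.10 (adjusted p = 2.58e-07) and 1.75 ± 0.14 (adjusted p = 5.19e-09). Each knockdown has its own scrambled dose as control, so siRNA dose is part of the design of this difference.

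Genes of amino acid and one-carbon synthesis, many of them known ATF4 targets, rose together: 17 of 23 passed upward and 2 downward, with a median log2 fold change of 0.70. Aldh1l2, a mitochondrial folate enzyme, had 495, 477, 513, 488 and 446 in the controls and 1997, 3129.9, 2846, 3099 and 2335 in the triple knockdown, a change of 2.45 ± 0.12 (adjusted p = 4.52e-14). Its cytosolic relative Aldh1l1 went the other way, from 179, 272, 205, 157 and 159 in the controls to 51.5, 38.01, 49.00, 59.9 and 52.5 (-1.92 ± 0.15, adjusted p = 3.01e-10), again without overlap. Asparagine synthetase, Asns, had 1917, 1959, 1579, 1758 and 1810.1 in the controls and 6008, 4591, 4831, 4751 and 4705 in the triple knockdown, and rose by 1.46 ± 0.07 (adjusted p = 2.66e-14). In the serine and glycine branch, Psph rose by 1.56 ± 0.09, Shmt2 by 1.10 ± 0.06 and Mthfd2 by 1.002 ± 0.06; Cth of the transsulfuration route to cysteine rose by 2.21 ± 0.11 and the proline enzyme Pycr1 by 1.79 ± 0.12.

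Amino acid transporters were divided, with 7 of 19 risen and 5 fallen. The cystine transporter Slc7a11 rose from 308 ± 32.01 to 1139.5 ± 234 (1.86 ± 0.12, adjusted p = 9.52e-12), the glycine transporter Slc6a9 by 1.78 ± 0.06, and both chains of the large neutral amino acid exchanger, Slc7a5 and Slc3a2, by 1.51 ± 0.07 and 1.16 ± 0.07. Slc38a4 fell (-0.88 ± 0.09), the taurine transporter Slc6a6 (-0.68 ± 0.13) and Slc7a6 (-0.37 ± 0.05). The aminoacyl-tRNA synthetases, which charge tRNAs, were uniform in direction: 15 of 20 rose and none fell, with a median of 0.80 (0.72 without triple libraries 1 and 5). Wars had 1668, 1733, 1778, 1645 and 1671 in the controls and 4379, 3984, 4114, 4164 and 4253 in the triple knockdown, which are separate ranges, and rose by 1.30 ± 0.05 (adjusted p = 4.61e-16). Eprs rose by 1.01 ± 0.06, Gars by 0.93 ± 0.06 and Aars by 0.73 ± 0.06.

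Among 20 stress signals and growth-restraining genes 15 rose and 2 fell, with a median of 0.98. Chac1, which degrades glutathione, had 417, 499.6, 487, 382 and 419.5 in the controls and 2112, 1544, 1677, 1635 and 1983 in the triple knockdown, a rise of 2.02 ± 0.08 (adjusted p = 5.31e-15). Ndrg1 rose by 1.85 ± 0.10, Eif4ebp1, an inhibitor of cap-dependent translation, by 1.22 ± 0.09, Sesn2, an inhibitor of mTORC1, by 1.02 ± 0.07 and the stress regulator Nupr1 by 0.77 ± 0.12. The hormone gene Fgf21 stayed low, with 1.92, 4.91, 1.10, 0.950 and 0 in the controls and 18.5, 7.60, 7.47, 5.89 and 15.2 in the triple knockdown, and its rise (2.23 ± 0.44) rests on few reads. Not all known stress targets rose: Trib1 fell (-0.79 ± 0.07) and the death receptor Tnfrsf10b (-0.26 ± 0.05), and the secreted stress hormone Gdf15 did not pass (-0.35 ± 0.16, adjusted p = 0.0911). Gdf15 passed downward without triple library 1 (-0.47, adjusted p = 0.0164), without triple libraries 1 and 5 (-0.54, adjusted p = 0.00862), without control library 5 (-0.45, adjusted p = 0.0336) and with both scrambled groups pooled (-0.42, adjusted p = 0.0227).

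Promoters of 4 risen genes are shown because they hold a composite element bound by ATF4 and CHOP dimers, searched as TGATGNAAT on both strands in the 250 bases before and 50 after the start site. The element was found in 6 of the 48 risen members of these lists that have a promoter in the RefSeq table (12.5%). It was found in 0 of 8 fallen members and in 0 of 18 that did not pass. Of all 27025 genes with a promoter 1.08% hold it in any of their promoters. The sequences are from RefSeq on GRCm38.p6, 250 bases before the start site on the gene's strand, with the element in capitals in the orientation found. Pycr1 lies at chr11:120643749-120643998 (minus strand), Gars at chr6:55037751-55038000 (plus), Nupr1 at chr7:126625471-126625720 (minus) and Aars at chr8:111033592-111033841 (plus). A match is a description of letters and not of binding; the promoters of Fgf21, which has few reads, and of Iars, which also hold the element, are not shown.
Pycr1: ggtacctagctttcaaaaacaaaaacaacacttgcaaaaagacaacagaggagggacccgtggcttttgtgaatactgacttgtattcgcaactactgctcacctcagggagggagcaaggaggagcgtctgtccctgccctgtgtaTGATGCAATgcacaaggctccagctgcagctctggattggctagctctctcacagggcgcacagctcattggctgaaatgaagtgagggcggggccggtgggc
Gars: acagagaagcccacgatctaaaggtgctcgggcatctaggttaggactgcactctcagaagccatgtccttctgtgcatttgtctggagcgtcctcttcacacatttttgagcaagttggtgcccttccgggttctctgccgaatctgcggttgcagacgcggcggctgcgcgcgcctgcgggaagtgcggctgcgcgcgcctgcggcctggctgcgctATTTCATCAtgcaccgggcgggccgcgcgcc
Nupr1: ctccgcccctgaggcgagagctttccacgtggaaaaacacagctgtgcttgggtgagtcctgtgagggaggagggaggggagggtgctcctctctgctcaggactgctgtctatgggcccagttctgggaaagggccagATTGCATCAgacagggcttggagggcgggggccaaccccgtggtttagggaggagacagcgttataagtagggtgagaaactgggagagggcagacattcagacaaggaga
Aars: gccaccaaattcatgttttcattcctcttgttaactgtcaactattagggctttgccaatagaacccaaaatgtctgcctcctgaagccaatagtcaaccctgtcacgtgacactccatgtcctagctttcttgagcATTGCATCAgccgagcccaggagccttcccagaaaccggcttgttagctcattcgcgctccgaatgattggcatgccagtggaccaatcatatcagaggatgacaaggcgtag

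The genes of ER folding gave a mixed picture. Among 13 ER stress sensors and factors 5 rose (8 without triple libraries 1 and 5) and 2 fell. Xbp1, the factor that IRE1 activates by splicing, rose by 0.77 ± 0.07 in total reads, which do not separate its splice forms, and Ern1, which encodes IRE1, by 0.65 ± 0.09. Among the CREB3 family of membrane-bound factors, Creb3 rose (0.66 ± 0.09) and Creb3l1 and Creb3l2 fell. Creb3l1 had 1887, 2164, 2425, 1942 and 1965 in the controls and 1020.0, 1056, 1144, 1040.2 and 1005 in the triple knockdown (-0.97 ± 0.07, adjusted p = 2.80e-11). Creb3l2, a factor known to induce Sec23a in cartilage, fell (-0.61 ± 0.07), whereas its value in the Sec24B knockdown was 0.31 ± 0.07 (difference adjusted p = 5.45e-07). Mbtps1, the Golgi protease that cleaves ATF6 and SREBP, did not pass (-0.04 ± 0.05, adjusted p = 0.653).

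Of 22 ER chaperones 8 rose and 5 fell, with a median of 0.09; without triple libraries 1 and 5 the rises numbered 5 and the median was 0.004. The median over the list was 0.321 in triple library 1 and 0.005 to 0.122 in the other triple libraries. Hspa5, which encodes the chaperone BiP, had 6289, 6092, 6334, 7041 and 6607 in the controls and 18612, 12565, 12819.6, 12061 and 13043 in the triple knockdown. The groups were separate and the log2 fold change was 1.08 ± 0.08 (adjusted p = 1.92e-10), against 0.10 ± 0.09 in the Sec24B knockdown (difference adjusted p = 2.52e-06). Dnajb9 rose by 0.71 ± 0.13 and Serp1, which stabilises membrane proteins, by 0.64 ± 0.05. The lectin chaperone calreticulin, Calr, fell from 14222, 14347, 15200.5, 15456 and 15734 in the controls to 13655, 10240.1, 10796, 9998 and 10683 (-0.45 ± 0.07, adjusted p = 1.76e-05). Hsp90b1 (GRP94) fell (-0.33 ± 0.07) with overlapping libraries, Dnajb11 (-0.66 ± 0.05), and Hyou1 did not pass (0.11 ± 0.05, adjusted p = 0.126) but passed upward with both scrambled groups pooled (0.21, adjusted p = 0.0094).

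Of 16 disulfide isomerases and oxidases 5 fell and 2 rose. Falls also outnumbered rises over all 3600 genes with a mean of 1000 or more (1183 against 800). Among the fallen isomerases were Pdia4 (-0.43 ± 0.06) and Pdia6 (-0.29 ± 0.07, libraries overlapping). The oxidase Ero1l, which recharges the isomerases and is a known CHOP target, went the opposite way, from 1097, 925, 801, 930.4 and 933 in the controls to 3281, 3847, 3324, 3517 and 2752 (1.83 ± 0.09, adjusted p = 6.72e-14). ER-associated degradation genes rose more often than they fell, 10 against 1 of 22. Herpud1 had 1079.5, 1073, 941, 837 and 952 in the controls and 3414, 2623, 2642, 2531 and 2861 in the triple knockdown, and rose by 1.52 ± 0.07 (adjusted p = 3.73e-14). Derl1, a channel component, rose by 0.67 ± 0.06, the adaptor Sel1l by 0.41 ± 0.07 and Selenos by 0.57 ± 0.08. Of 33 oligosaccharyltransferase and translocon genes 12 rose and 4 fell, with a median of 0.10; without triple libraries 1 and 5 these were 11, 5 and 0.041, and without triple library 5 alone 2 fell.

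The ER stress response element, CCAAT and CCACG separated by 9 bases, was searched on either strand. It was found in 3 of 15 risen chaperone, isomerase and degradation genes with a promoter, in 3 of 9 fallen ones and in 3 of 25 that did not pass. Of all genes with a promoter 0.14% hold it. The promoters of the risen Hspa5 (chr2:34771840-34772089, plus strand) and of the fallen Calr (chr8:84846932-84847181, minus) and Hsp90b1 (chr10:86705445-86705694, minus) are shown to set genes that hold the same letters and moved in opposite directions beside each other, with the element in capitals; Calr and Hsp90b1 were chosen after their values were seen.
Hspa5: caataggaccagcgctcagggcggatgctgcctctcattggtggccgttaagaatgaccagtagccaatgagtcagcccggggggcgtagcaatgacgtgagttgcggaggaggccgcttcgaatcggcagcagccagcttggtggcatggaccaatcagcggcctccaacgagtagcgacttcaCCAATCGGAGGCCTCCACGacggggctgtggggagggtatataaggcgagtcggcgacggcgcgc
Calr: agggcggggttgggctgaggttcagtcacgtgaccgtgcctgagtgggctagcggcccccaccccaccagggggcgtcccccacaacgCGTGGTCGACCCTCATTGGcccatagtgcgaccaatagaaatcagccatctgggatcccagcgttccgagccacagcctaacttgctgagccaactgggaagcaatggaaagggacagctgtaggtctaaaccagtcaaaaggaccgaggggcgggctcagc
Hsp90b1: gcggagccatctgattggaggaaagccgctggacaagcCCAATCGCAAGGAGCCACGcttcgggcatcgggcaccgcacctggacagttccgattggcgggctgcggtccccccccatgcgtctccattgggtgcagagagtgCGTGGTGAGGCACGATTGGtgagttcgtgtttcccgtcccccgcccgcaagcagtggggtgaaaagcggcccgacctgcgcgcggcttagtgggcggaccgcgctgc

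Among passing genes with separate groups and a higher group averaging 100 or more, the largest rise was in an ER gene. Clone, predicted and Rik names were left out of this ranking. Atp2a3, which encodes the SERCA3 pump that moves calcium into the ER, had 9.61, 4.91, 12.1, 5.68 and 11.4 in the controls and 218, 165, 138, 164 and 169 in the triple knockdown. The log2 fold change was 4.20 ± 0.24 (adjusted p = 1.04e-12), and in the Sec24B knockdown 1.30 ± 0.25 (difference adjusted p = 2.09e-06). Atp2a2, the widely expressed SERCA2 pump, fell from 5279 ± 172 to 4208 ± 564 (-0.34 ± 0.08), and the inositol trisphosphate receptor Itpr3 (-0.62 ± 0.09). Of the 12 ER calcium genes 4 rose and 4 fell, where 16.8% and 17.2% of all genes did.

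**Figure D3:**
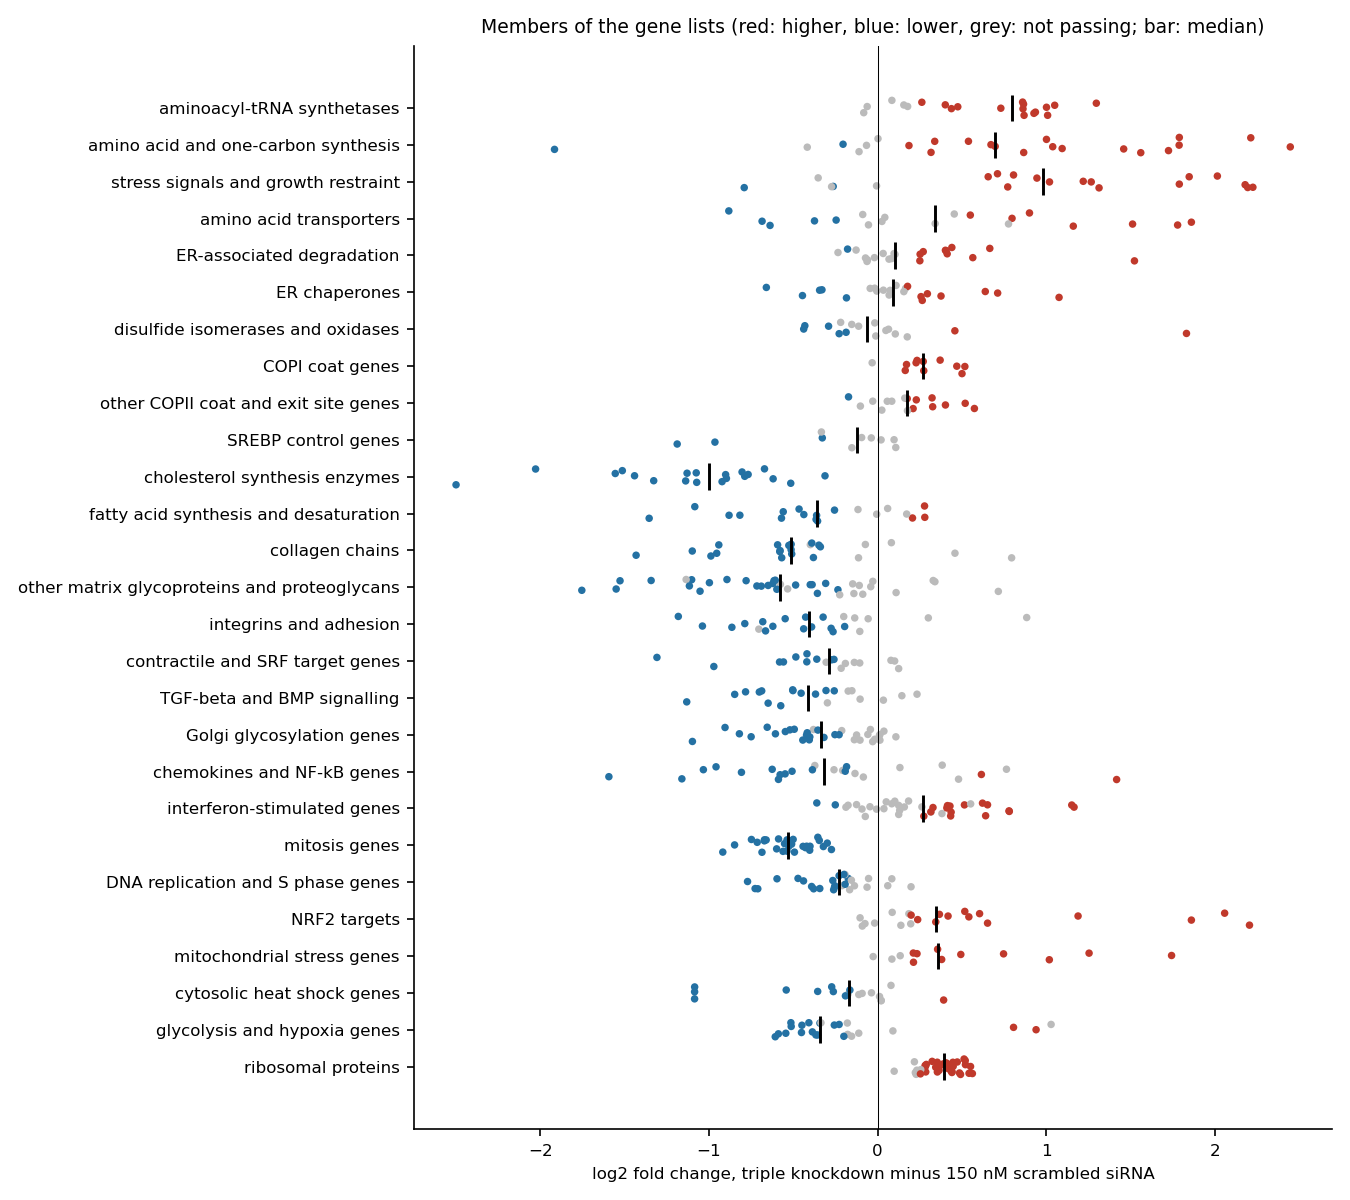
Log2 fold change (triple knockdown minus 150 nM scrambled siRNA) of each measured member of 27 gene lists; red members rose, blue fell, grey did not pass, and black bars are list medians. Medians of the tRNA synthetase (0.80) and amino acid synthesis (0.70) lists lie to the right of 0, and all members of the cholesterol and mitosis lists lie to the left.

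Cholesterol synthesis moved as a block. All 20 of 20 enzymes fell, with a median log2 fold change of -0.997 (-1.05 without triple libraries 1 and 5) and a range of -2.50 to -0.31. Over all genes 17.2% fell, but the list was chosen with earlier results of these data known, so the comparison is not a test. Hmgcs1, which makes the precursor HMG-CoA, had 2063, 1908, 1810.0, 1963 and 2032 in the control libraries and 912, 758, 696, 831 and 711 in the triple knockdown. All triple libraries lay below all controls, with a log2 fold change of -1.33 ± 0.07 (adjusted p = 1.21e-13). Idi1 fell from 440.1 ± 57.03 to 152 ± 39.4 (-1.56 ± 0.13), the squalene epoxidase Sqle (-1.07 ± 0.06) and the late enzyme Hsd17b7 (-2.03 ± 0.10). The gene listed as Fdps had few reads (25.2 and 4.02 on average) and its value (-2.50 ± 0.30) is uncertain because related copies can share its reads.

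The fall was tested against the Sec24B knockdown for every enzyme, and the difference passed for all 20 (19, all but Sc5d, without triple libraries 1 and 5). In the Sec24B knockdown itself 7 of the enzymes fell, among them Hsd17b7 (-0.61 ± 0.11), and 2 rose. For Hmgcs1 the Sec24B value was -0.01 ± 0.07 (difference adjusted p = 1.48e-09), and Dhcr7 had a negative value in the triple knockdown (-0.79 ± 0.09) and a positive one in the Sec24B knockdown (0.51 ± 0.10; difference adjusted p = 3.21e-07). The regulators were less uniform, with 3 of 10 SREBP control genes fallen and none risen (4 fallen and 1, Mbtps2, risen without triple libraries 1 and 5). Srebf2, which encodes the factor that drives cholesterol synthesis, had 5582, 6098, 6570.2, 5759.7 and 5831 in the controls and 2552, 2652, 2435, 2626 and 2823 in the triple knockdown, a change of -1.19 ± 0.06 (adjusted p = 4.38e-13). Insig1, an SREBP target that retains SCAP in the ER, fell (-0.96 ± 0.07; Sec24B 0.25 ± 0.07, difference adjusted p = 7.94e-09) and Insig2 (-0.33 ± 0.06), while Scap did not pass (-0.09 ± 0.07, adjusted p = 0.317).

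In sterol uptake and efflux 8 of 17 genes fell and 4 rose. The sterol carrier Stard4 had 724, 579.9, 627, 685 and 674 in the controls and 253, 277, 228, 277 and 212 in the triple knockdown, which are separate ranges. It fell (-1.40 ± 0.08, adjusted p = 2.00e-12) and so did the receptor Lrp8 (-0.93 ± 0.14), whereas the liver X receptor Nr1h2 rose by 0.46 ± 0.08 and Soat1, which stores cholesterol as esters, by 0.25 ± 0.06. Soat2, its paralog, rose from 81.7, 65.5, 68.3, 55.9 and 74.99 in the controls to 328, 274, 248, 295 and 339.6 (2.08 ± 0.12, adjusted p = 6.80e-13). Fatty acid genes followed in part, 12 of 19 down and 3 up: the desaturase Scd1 fell (-1.35 ± 0.08), Acsl3 (-1.08 ± 0.07), Elovl6 (-0.82 ± 0.09) and Fads2 (-0.57 ± 0.05), and Elovl5 rose by 0.28 ± 0.07. The endothelial lipase gene Lipg fell from 139.9 ± 13.5 to 38.8 ± 1.90 (-1.82 ± 0.13). No promoter of a fallen member of the sterol lists (0 of 31 with a promoter) held a sterol regulatory element of the form searched. Of all genes with a promoter 0.27% hold it. The absence says only that these letters are not in the window.

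**Figure D4:**
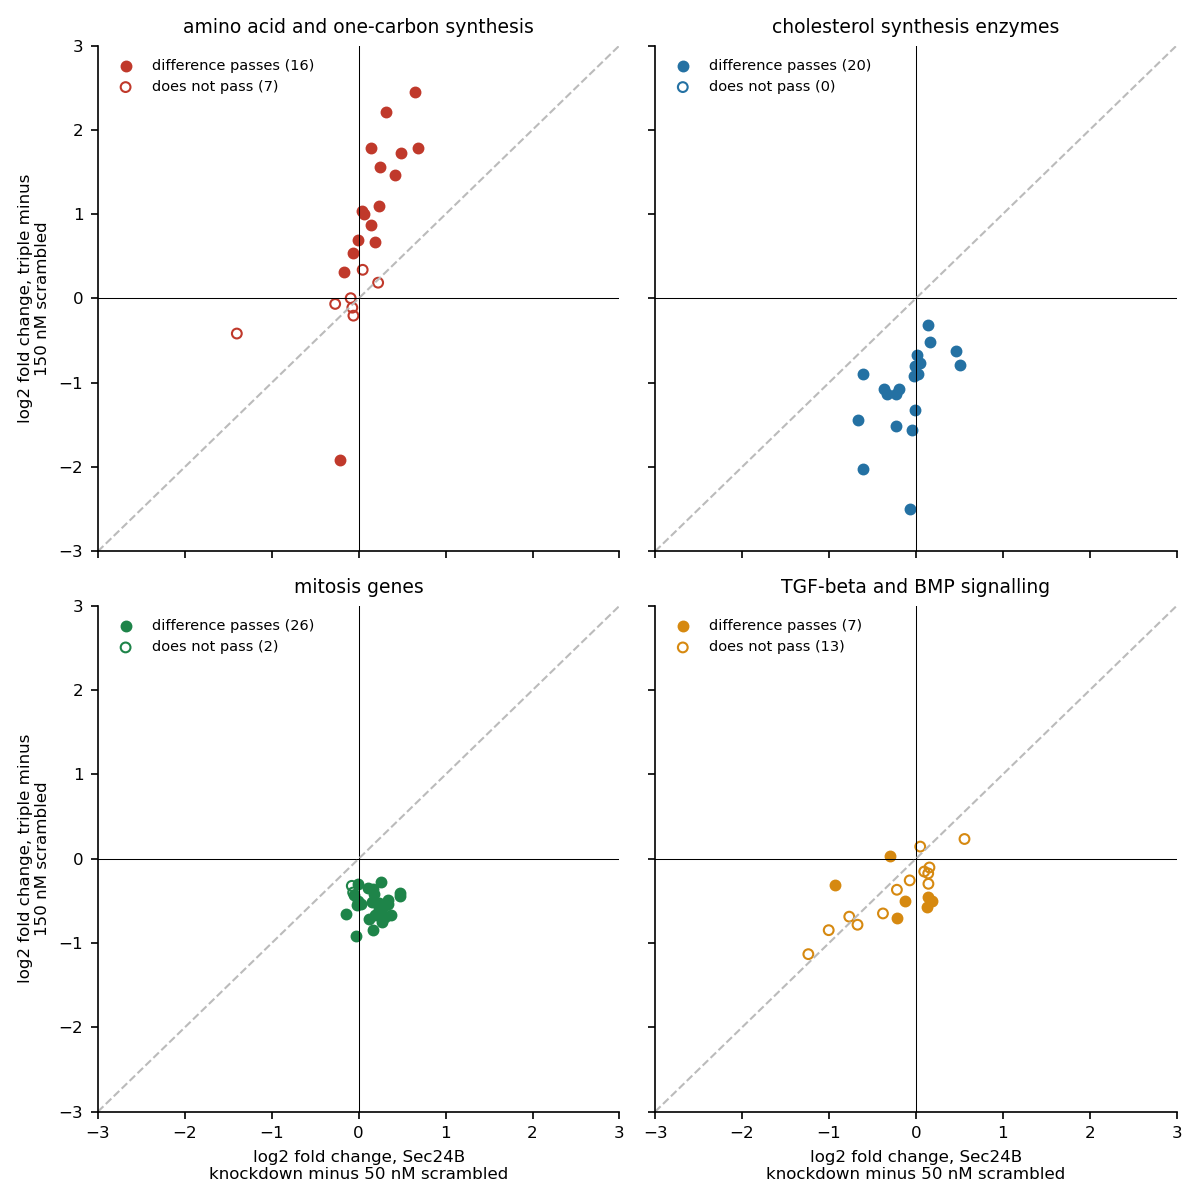
Log2 fold change in the triple knockdown (vertical, against 150 nM scrambled siRNA) and in the Sec24B knockdown (horizontal, against 50 nM scrambled siRNA) for the members of 4 lists; filled points are genes whose difference passed and the dashed line marks equal effects. All 20 cholesterol enzymes and 26 of 28 mitosis genes differ, against 7 of 20 TGF-beta and BMP genes.

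The matrix that fibroblasts secrete through the COPII route was lower at the RNA level. Of 23 collagen chains 17 fell and none rose, with a median of -0.51. Col1a1 had 148193, 186573, 193545, 149972 and 147595 in the controls and 96394, 75263, 86759, 78043 and 88511 in the triple knockdown. The groups were separate and the log2 fold change was -0.95 ± 0.10 (adjusted p = 8.98e-08); its partner chain Col1a2 fell (-0.58 ± 0.08). Col3a1 fell (-0.94 ± 0.07) and had 0.29 ± 0.07 in the Sec24B knockdown (difference adjusted p = 4.87e-09). The fibril-associated chain Col12a1 fell (-1.43 ± 0.13) and the anchoring fibril chain Col7a1 (-1.10 ± 0.07).

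Collagen-processing genes were split between steps. The cross-linking oxidase Lox had 11213, 10653, 12230.5, 11636 and 10973 in the controls and 2899, 4276, 4336, 4107 and 3536 in the triple knockdown, a log2 fold change of -1.58 ± 0.08 (adjusted p = 2.95e-13) with separate groups. Loxl2 fell (-0.74 ± 0.07) and the procollagen proteinase Bmp1 (-0.67 ± 0.06), while the prolyl hydroxylase P3h3 rose by 0.37 ± 0.06 and Serpinh1, the collagen chaperone HSP47, did not pass (0.13 ± 0.08, adjusted p = 0.212). In all 11 of 23 fell and 2 rose (14 and 1 without triple libraries 1 and 5). Among 37 other matrix genes 23 fell and none rose, with a median of -0.58; without triple libraries 1 and 5 25 fell and 1 rose. Thrombospondin, Thbs1, fell from 26983, 26132, 35976, 37976 and 33950.3 in the controls to 9090.1, 10669, 12339, 12016 and 11435 (-1.53 ± 0.11, adjusted p = 6.29e-11). Tenascin C, Tnc, fell (-1.55 ± 0.11), osteopontin, Spp1, (-1.75 ± 0.15), perlecan, Hspg2, (-1.12 ± 0.12), versican, Vcan, (-0.997 ± 0.13), Sparc (-0.69 ± 0.07) and fibronectin, Fn1, (-0.49 ± 0.13). Without triple libraries 1 and 5 the log2 fold changes were -0.71 for Vcan, -0.29 for Fn1 and -1.42 for Lox.

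Proteases of the matrix fell in 12 of 20 cases, including Adamts4 (-1.30 ± 0.11) and the plasminogen activator Plau (-1.09 ± 0.07; Sec24B -0.04 ± 0.08, difference adjusted p = 1.33e-07). The single riser was Mmp11, stromelysin 3, with 1354, 1584, 1444, 1345 and 1396 in the controls and 3563, 3080.0, 3191, 3004 and 3359 in the triple knockdown (1.18 ± 0.06, adjusted p = 2.72e-14). Integrins and adhesion genes showed 15 falls and no rise among 22, with Itgb3 at -0.86 ± 0.07, Itga3 at -0.79 ± 0.07 and the hyaluronan receptor Cd44 at -0.68 ± 0.08. Golgi enzymes that build glycans fell in 18 of 32 cases and rose in none; among them Xylt1, which starts proteoglycan chains, was at -1.10 ± 0.14, Chst11 at -0.90 ± 0.09 and Ndst1 at -0.75 ± 0.08.

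Contractile genes fell in 10 of 18 cases, with none risen, where 17.2% of all genes fell. Of the 3600 genes with a mean of 1000 or more 1183 fell. Smooth muscle actin, Acta2, had 27764, 29474, 30495, 36571 and 33531 in the controls and 12481, 11326, 12919, 12599.8 and 14279 in the triple knockdown. The log2 fold change was -1.31 ± 0.08 (adjusted p = 1.54e-12), against 0.06 ± 0.08 in the Sec24B knockdown (difference adjusted p = 5.19e-09). The nonmuscle myosin heavy chain Myh9 fell (-0.97 ± 0.10), Tpm1 (-0.58 ± 0.05) and Actg1 (-0.56 ± 0.08). Of 20 TGF-beta and BMP genes 13 fell and none rose (15 and 1 without triple libraries 1 and 5), among the fallen the activin subunit Inhba (-0.85 ± 0.07) and the receptor Tgfbr1 (-0.70 ± 0.10). Of 11 YAP and TEAD targets 9 fell, with Ccn2 at -1.34 ± 0.16 and Ccn1 at -0.72 ± 0.07. For Inhba, Myh9 and Ccn2 the Sec24B knockdown gave -1.003 ± 0.08, -1.04 ± 0.11 and -1.51 ± 0.17, and none of these 3 differences passed (adjusted p from 0.384 to 0.804).

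Planar cell polarity genes were included because VANGL2 is a known SEC24B cargo. Vangl2 itself fell from 452, 436, 525, 404 and 428 in the controls to 317, 327, 346, 315 and 345 (-0.44 ± 0.07, adjusted p = 5.65e-05), and in all 7 of 14 fell and 2 rose. Prickle1 fell (-1.09 ± 0.15) and the ligand Wnt5a (-0.82 ± 0.12), while the receptor Fzd3 rose by 0.56 ± 0.13. The mesenchymal factor Prrx1 fell (-0.77 ± 0.07) and the osteogenic factor Runx2 (-0.96 ± 0.09).

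**Figure D5:**
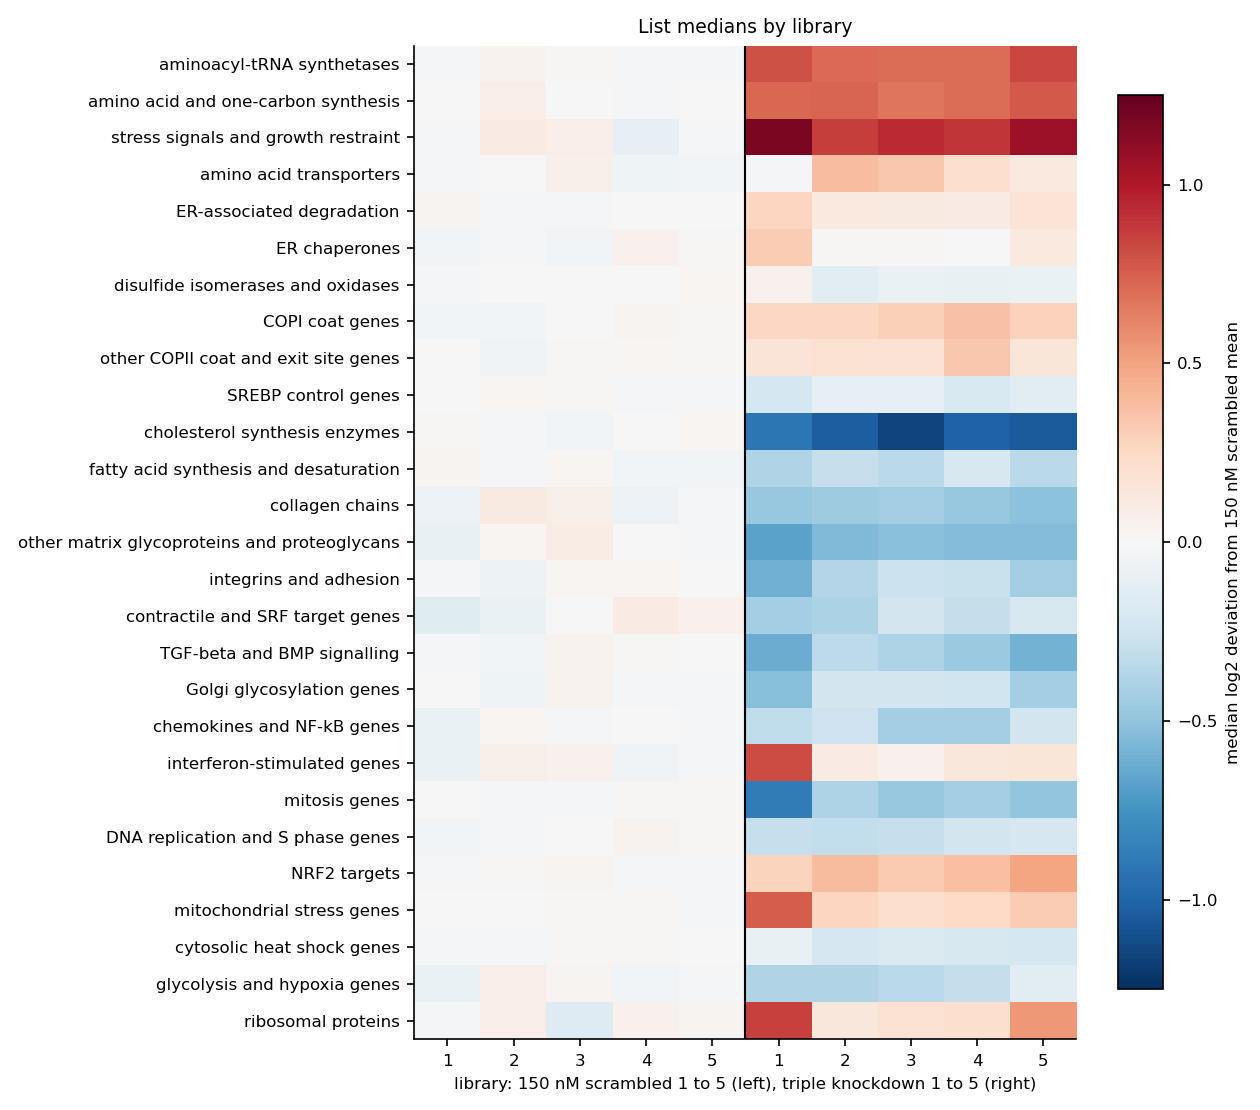
Median over list members of log2(normalised count + 1) minus the mean of the control libraries, for 27 lists (vertical) and the 10 libraries (horizontal; control 1 to 5, then triple knockdown 1 to 5). Triple library 1 departs from the other triple libraries for ribosomal proteins (0.857 against 0.142 to 0.544), interferon-stimulated genes (0.815 against 0.058 to 0.147), mitochondrial stress genes (0.756 against 0.212 to 0.321) and mitosis genes (-0.873 against -0.387 to -0.497).

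Immune genes moved in opposite directions. Of 38 interferon-stimulated genes 16 rose and 2 fell, with a median of 0.27 that was 0.09 without triple libraries 1 and 5. In the Sec24B knockdown, against 50 nM scrambled siRNA, 23 of the 38 rose and 0 fell, with a median of 0.357. The difference passed for 9 genes, all with the triple effect below the Sec24B effect. Rsad2, the antiviral enzyme viperin, had 74.98, 93.4, 80.4, 65.4 and 74.04 in the 150 nM control, 237, 180.3, 153, 159 and 147 in the triple knockdown and 247, 222, 244 and 253 with 50 nM scrambled siRNA. The triple libraries lay above the 150 nM control (1.15 ± 0.13, adjusted p = 2.26e-07) but not above the 50 nM control, and the call ended when both scrambled groups were pooled. The call also ended with pooled controls for Ifi44 (1.17 ± 0.13), Irf7 (0.62 ± 0.12), Isg15 (0.65 ± 0.17) and the antigen presentation gene B2m (0.40 ± 0.08), and over the list 1 gene then rose and 7 fell. The class I gene H2-K1 rose from 760.4, 1148, 1151, 892 and 748 in the controls to 3393, 1591, 1659, 1686 and 2357 (1.15 ± 0.16, adjusted p = 4.70e-06) and kept its call with pooled controls, although its reads can be shared with other class I genes. Antigen presentation genes rose in 6 of 12 cases and fell in none. With pooled controls 2 rose and 2 fell, and without triple libraries 1 and 5 the counts were 5 risen and 1 fallen. In the Sec24B knockdown 8 of these 12 genes rose and 0 fell, with a median of 0.522 against 0.356 in the triple knockdown. The difference passed for 4, all with the triple effect below the Sec24B effect. The calls that ended depend on which scrambled dose serves as control.

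Chemokines and NF-kB genes fell more often than they rose: 13 of 24 fell and 2 rose (14 and 1 without triple libraries 1 and 5), with a median of -0.32. The monocyte chemokine Ccl2 had 3178, 3186, 2702, 3087 and 3121 in the controls and 1602, 1436, 1413, 1399 and 1615 in the triple knockdown. These ranges are separate, with a log2 fold change of -1.03 ± 0.06 (adjusted p = 7.93e-13). Ccl7 fell (-0.96 ± 0.08), Cxcl12 (-0.58 ± 0.06), Il6 (-0.62 ± 0.11), the NF-kB inhibitor Tnfaip3 (-0.51 ± 0.08) and the IL-33 receptor Il1rl1 (-1.59 ± 0.10). Cxcl1 fell (-0.81 ± 0.09) and had 0.13 ± 0.10 in the Sec24B knockdown (difference adjusted p = 2.43e-05); the difference passed for 16 of the 24 genes. Lcn2, an iron-binding acute phase protein, rose from 13.8 ± 6.41 to 37.8 ± 15.04 (1.42 ± 0.27). The leukocyte markers Cd68 and Cd14 fell as well (-1.10 ± 0.16 and -0.76 ± 0.09), and whether a few cells of that type had a part in the chemokine values was not tested.

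Genes of cell division fell together. All 28 of 28 mitosis genes passed downward, with a median of -0.53 (-0.42 without triple libraries 1 and 5), and the difference from the Sec24B knockdown passed for 26. The proliferation marker Mki67 had 4421, 4124, 4743, 4771 and 4552 in the controls and 1652, 2829, 2579.7, 3109.9 and 2079.7 in the triple knockdown. Triple library 1 was the lowest, and all triple libraries lay below the controls (-0.92 ± 0.12, adjusted p = 1.75e-06; -0.67 without libraries 1 and 5). Cyclin B1, Ccnb1, fell from 2310.1 ± 77.5 to 1303 ± 238 (-0.85 ± 0.09), Plk1 (-0.59 ± 0.08) and Top2a (-0.66 ± 0.07). The kinase gene Aurka fell (-0.56 ± 0.06) but had 0.29 ± 0.06 in the Sec24B knockdown (difference adjusted p = 6.17e-08), and the anaphase activator Cdc20 had -0.44 ± 0.07 and 0.48 ± 0.08 (difference adjusted p = 1.05e-06); the Cdc20 call ended with pooled scrambled controls.

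S phase genes fell less uniformly, in 17 of 27 cases (20 without triple libraries 1 and 5), with Rrm2, a ribonucleotide reductase subunit, at -0.71 ± 0.05 and the cyclin Ccne1 at -0.77 ± 0.09. Myc rose from 1627, 1646, 1688, 1636 and 1627 in the controls to 2930.0, 2438, 2608, 2618 and 2936 (0.71 ± 0.06, adjusted p = 3.45e-10) and the inhibitor Cdkn2b fell (-0.58 ± 0.12). Of 20 p53 targets 6 rose and 4 fell, where 16.8% and 17.2% of all genes did. The largest was Gadd45a, also a known ATF4 target, with 708, 848, 716, 596 and 676 in the controls and 3605, 2875, 2517, 2442 and 3206 in the triple knockdown (2.04 ± 0.09, adjusted p = 1.16e-14). In the BCL2 family the proapoptotic genes did not share a direction: Bbc3, which encodes PUMA, rose by 0.66 ± 0.11, whereas Bmf and Bcl2l11, which encodes BIM, fell (-1.53 ± 0.12 and -0.93 ± 0.08). The survival gene Mcl1 did not pass (0.09 ± 0.05, adjusted p = 0.246).

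Antioxidant genes mostly rose. Of 21 NRF2 targets 13 passed upward and none downward, with a median of 0.35. Without triple library 1 there was 1 downward call, and without triple libraries 1 and 5 14 passed upward and 2 downward. Slc7a11, described above, is among them and is also an ATF4 target. Haem oxygenase, Hmox1, had 5864, 6383, 6275, 5749 and 5699 in the controls and 17239, 12116, 12531, 12333 and 14722 in the triple knockdown. The groups were separate (1.19 ± 0.08, adjusted p = 1.35e-11), and the Sec24B value was -0.26 ± 0.08 (difference adjusted p = 2.90e-09). Ferritin heavy chain, Fth1, rose by 0.65 ± 0.10 and the glutathione synthesis subunit Gclm by 0.54 ± 0.11 with overlapping libraries. The autophagy receptor Sqstm1, also an NRF2 target, rose from 13289, 14917, 13602, 12161 and 12886 in the controls to 39122, 31134, 30498, 30041 and 35979.5 (1.31 ± 0.07, adjusted p = 6.53e-13). Among 27 autophagy genes 11 rose and 3 fell, where 16.8% and 17.2% of all genes did. These included Gabarapl1 (0.40 ± 0.05) and Calcoco1 (0.62 ± 0.06) upward and the initiating kinase Ulk1 (-0.31 ± 0.07) downward. Of 29 lysosome genes 12 rose and 7 fell, for example Ctsl (0.36 ± 0.06) and Gusb (-0.43 ± 0.06).

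Mitochondrial stress genes and cytosolic heat shock genes moved in opposite directions. Of 13 mitochondrial stress genes 10 rose and none fell, with a median of 0.36 (9 risen and a median of 0.22 without triple libraries 1 and 5). The list's median was 0.756 in triple library 1 and 0.212 to 0.321 in the other triple libraries. The protease Lonp1 had 2944, 3489, 3481, 3111 and 3029 in the controls and 8769, 6899.5, 6992, 7155 and 8621 in the triple knockdown (1.25 ± 0.07, adjusted p = 1.09e-12), Dnaja3 rose by 1.02 ± 0.06 and mortalin, Hspa9, by 0.75 ± 0.05. Of 18 cytosolic heat shock genes 9 fell and 1 rose, against 8 and 0 in the Sec24B knockdown, with medians of -0.17 and -0.181. The inducible Hspa1a and Hspa1b, near-identical genes whose reads can be split between them, fell (-1.08 ± 0.14 and -1.08 ± 0.11), as did Hspa4l (-1.08 ± 0.13) and the constitutive Hspa8 (-0.26 ± 0.06); the riser was the chaperonin subunit Cct2 (0.39 ± 0.06).

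Glycolysis and hypoxia genes fell in 15 of 24 cases, against 16 in the Sec24B knockdown, with medians of -0.338 and -0.286. Rises numbered 2 and 1, and the difference between the knockdowns passed for 6 genes. Hexokinase 1, Hk1, fell from 5666 ± 346 to 3723 ± 262 (-0.61 ± 0.06), Pgam1 (-0.59 ± 0.05) and lactate dehydrogenase A, Ldha, (-0.51 ± 0.06). The angiogenic factor Vegfa, a known target of both HIF and ATF4, rose instead, from 2519.6, 2769.8, 2696, 2341 and 2439 in the controls to 4576, 4558, 4277, 4355 and 4534 (0.81 ± 0.05, adjusted p = 2.55e-11). Ribosomal protein genes rose in 35 of 41 cases with a median of 0.40, but without triple libraries 1 and 5 the count was 22 and the median 0.18. The part of the deviations by transcript length given above was not tested. Rpl5 had 8412, 7662, 7490.1, 8206 and 8108 in the controls and 16095, 10905, 10772, 10523 and 10929 in the triple knockdown, where replicate 1 was the highest (0.55 ± 0.09; 0.43 without triple libraries 1 and 5).

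Immediate early genes were divided, 5 up and 10 down of 20. The AP-1 subunit Fosl2 had 3921, 4274, 4321, 4073 and 3946 in the controls and 1054, 2060.2, 2053, 2096 and 1836 in the triple knockdown (-1.22 ± 0.12, adjusted p = 2.18e-08), Jun fell (-0.61 ± 0.07), and Klf4 rose by 0.69 ± 0.06. Among MAPK feedback and growth factor genes, 6 up and 8 down of 25, the inhibitor Spry1 rose by 1.23 ± 0.11 and Igfbp4 by 1.20 ± 0.10. Ago2, the slicing argonaute that siRNAs load into, fell from 3112, 2959.8, 3097, 3116 and 2964 in the controls to 1155, 2079.7, 2079.7, 2089 and 1506 (-0.81 ± 0.11, adjusted p = 4.31e-06); its Sec24B value was -0.54 ± 0.12, and the difference did not pass (adjusted p = 0.312).

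Outside these lists, large rises and falls at averages of 100 or more in the higher group were in genes of varied function. P2rx3, an ATP-gated cation channel best known from sensory neurons, had 16.3, 19.7, 7.71, 12.3 and 10.4 in the controls and 147, 203, 213, 232 and 211 in the triple knockdown (3.87 ± 0.22, adjusted p = 1.04e-12). Tenm4, a teneurin, rose from 9.80 ± 2.17 to 118 ± 14.5 (3.48 ± 0.21), Sh2d6 from 6.15 ± 4.38 to 106 ± 13.7 (4.08 ± 0.31) and Angptl6, an angiopoietin-like secreted protein, from 23.9 ± 2.65 to 325 ± 102 (3.67 ± 0.20). All 4 were low in the controls. Groups that did not overlap were a condition for choosing them, so their separation is not a result. Cdsn, corneodesmosin, was already abundant and went from 649, 693, 686, 624 and 631 in the controls to 6207, 4063, 4349, 3943 and 4252 (2.77 ± 0.09, adjusted p = 1.21e-17). The neighbouring thioesterase genes Acot2 and Acot1, close paralogs whose reads can be shared, rose by 2.27 ± 0.09 and 2.12 ± 0.16.

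Among the falls, Ndnf, a secreted neurotrophic factor, had 456, 370.2, 387, 479 and 494 in the controls and 40.8, 59.7, 66.4, 79.6 and 49.1 in the triple knockdown. The log2 fold change was -2.89 ± 0.14 (adjusted p = 3.73e-14), and separate groups were again a condition of the choice. The inward rectifier channel Kcnj2 fell from 118, 98.3, 123, 116 and 122 in the controls to 14.6, 29.3, 24.1, 34.4 and 15.2 (-2.32 ± 0.19, adjusted p = 5.35e-10). Nrep fell (-1.97 ± 0.14), the retinol uptake receptor Stra6 (-1.86 ± 0.14), the cornified envelope gene Sprr1a (-1.72 ± 0.11) and haptoglobin, Hp, (-1.72 ± 0.14). Passing genes were also ranked by absolute difference of the means, without clone, predicted or Rik names. Here Col1a1, Fn1, Col1a2, Myh9, Thbs1 and Acta2 fell most, and Sqstm1, Fth1, Eef2, Tpt1, Rack1 and Rplp0 rose most. Of the latter, the translation genes Eef2 (0.25 ± 0.08, overlapping libraries), Tpt1 (0.44 ± 0.08), Rack1 (0.41 ± 0.10) and Rplp0 (0.35 ± 0.10) had values of 0.19, 0.33, 0.21 and 0.15 without triple libraries 1 and 5, and the Eef2 and Rplp0 calls ended.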

How the data were processed

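RNA from 19 libraries of Sec24d-knockout mouse embryonic fibroblasts was sequenced, and 1 table of the series was used. Its deposited values are a normalised signal: the read count of a gene over a factor for the library, rounded; whole reads could be recovered from 100% of the values within 0.0055. The authors' deposited log2 fold changes and p-values for the same comparison were used only to count shared calls. Per the submitters' processing notes the tools were Trimmomatic 0.27, FastQC 0.10.1, TopHat2 2.0.8 and Partek 6.6. These notes name human builds, whereas 19685 of the 19716 gene IDs are mouse IDs of GENCODE M21 on GRCm38, 99.1% of them with the same start and end; the build used to align is taken as unresolved. Strand and RNA selection are not given in the sources used here, so overlapping antisense genes cannot be separated.

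Groups and replicate numbers were taken from the labels. With limma 3.58.1 in R 4.3.3, log2(value + 1) was modelled over all 19 libraries as 4 group means with an intensity trend, after removing 81 genes that did not reach 1 in 4 or more libraries (19635 kept). Two-sided p-values were adjusted by Benjamini and Hochberg over all genes tested, called below 0.05, and no minimum fold was set. Alternatives were pseudocounts 0.1 and 5, other filters, TMM and upper-quartile factors, edgeR 4.0.16, DESeq2 1.42.0 and limma-voom on the recovered reads, only the groups compared, a replicate block, pooled scrambled groups and libraries left out. The replicate block was fitted on the 10 compared libraries only. Scripts were tested on simulated data. Promoters were matched by symbol to RefSeq's table; figures used Python 3.11.15 and matplotlib 3.10.9. Named genes were the SEC24 genes, genes marked in each list, up to 4 passing members of a list per direction by size and up to 2 abundant ones that did not pass, and the 12 largest rises and falls whose higher group averaged 100 or more and the 6 largest by difference of the means. Both rankings took only passing genes without clone, predicted or Rik names, and the first only genes whose groups did not overlap. Members and lists were chosen with earlier results of these data known. Some genes of these lists are counted but not reported here by name.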

Additional observations from a re-analysis of the deposited data

Results flagged for a closer look

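In 40 of 438 groups of 5 libraries, counted over the genes named above in the control and triple knockdown groups, 1 library lay far outside the others by Dixon's gap test at the 95% level. Chance gives about 1 in 20 independent groups. These groups share the same libraries and are not independent, so the 40 cannot be judged by that rate. Triple knockdown replicate 1 was that library in 28 of them and triple replicate 5 in 1, against 5, 3 and 3 for control replicates 1, 2 and 3. Genes of the stress, chaperone and interferon lists are among those where triple library 1 was the highest. Ppp1r15a had 1831 normalised counts in triple library 1 against 961 to 1136 in the other libraries of the group, Asns had 6008 against 4591 to 4831 and Eprs had 9429 against 7446 to 7995. Gars had 11167 normalised counts in triple library 1 against 8736 to 9177, Ndrg1 had 3055 against 1789 to 2120 and Hspa5 had 18612 against 12061 to 13043. Calr had 13655 normalised counts in triple library 1 against 9998 to 10796, Pdia4 had 3091 against 2507 to 2663 and Sparc had 22370 against 17036 to 17933. Ccl7 had 1452 normalised counts in triple library 1 against 981 to 1071, Cxcl1 had 783 against 483 to 540 and Isg15 had 8479 against 3037 to 4399. B2m had 17482 normalised counts in triple library 1 against 11742 to 11991, Rpl5 had 16095 against 10523 to 10929 and Cct2 had 14740 against 12207 to 12776. Cdsn had 6207 normalised counts in triple library 1 against 3943 to 4349. For 12 other genes it was the lowest. Sec31a had 6627 normalised counts in triple library 1 against 7498 to 7753 in the other libraries of the group, Ergic1 had 2970 against 3320 to 3416 and Slc6a6 had 1225 against 2272 to 2629. Mbtps1 had 2889 normalised counts in triple library 1 against 3228 to 3290, Lrp8 had 176 against 316 to 364 and Hspg2 had 5008 against 7552 to 8499. Ndst1 had 1284 normalised counts in triple library 1 against 1778 to 1905, Wnt5a had 180 against 303 to 348 and Ccnb1 had 882 against 1358 to 1442. Rrm2 had 2045 normalised counts in triple library 1 against 2410 to 2443, Gclm had 873 against 1384 to 1485 and Fosl2 had 1054 against 1836 to 2096. Col7a1 had 714 normalised counts in triple library 5 against 567 to 605 in the others.

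Control libraries stood apart less often. Gosr2 had 1952 normalised counts in control library 1 against 2077 to 2126 in the other libraries of the group, Serp1 had 1667 against 1410 to 1467 and Hyou1 had 1698 against 1898 to 1975. Hspa9 had 8993 normalised counts in control library 1 against 8348 to 8485 and Rplp0 had 24468 against 26979 to 27856. Eif4ebp1 had 2223 normalised counts in control library 2 against 2039 to 2086 in the other libraries of the group, Cdc20 had 2673 against 2302 to 2333 and Top2a had 10462 against 11185 to 11447. Adamts4 had 541 normalised counts in control library 3 against 440 to 468 in the other libraries of the group, Ccl2 had 2702 against 3087 to 3186 and Jun had 1569 against 1344 to 1371. The part of RNA quality, library preparation or transfection in these values was not tested.

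The effect of the triple knockdown, against 150 nM scrambled siRNA, was tested against that of the Sec24B knockdown, against 50 nM scrambled siRNA. The difference passed for 162 of the 219 genes whose values are given above (limma, adjusted p below 0.05), and for 15.8% of all genes tested. Many of the 219 were named for a large triple effect, which is part of the difference, so these shares cannot be compared. A difference is reported for 23 single genes, for all but Sec24a and Sec24c with its test above. It passed for 18 of those 23, whose values follow. On the log2 scale the triple effect minus the Sec24B effect was 0.52 for Copb2, 0.91 for Atf4, 1.75 for Trib3, 0.98 for Hspa5, 2.90 for Atp2a3 and 1.45 for Hmox1. Negative differences were -0.57 for Sec24a, -1.79 for Sec24c, -0.92 for Creb3l2, -1.22 for Insig1, -1.32 for Hmgcs1 and -1.30 for Dhcr7. The other negative differences among these 18 were -1.23 for Col3a1, -1.05 for Plau, -1.37 for Acta2, -0.94 for Cxcl1, -0.85 for Aurka and -0.92 for Cdc20. The difference for Sec24a lost its call without triple replicate 5, without Sec24B replicate 2, 3, 4 or 5, without 50 nM scrambled replicate 1 or 4, and without 150 nM scrambled replicate 1, 3, 4 or 5, each left out in turn, with values of -0.58 to -0.50 in those fits, and it was -0.28 and still passed without triple replicates 1 and 5. Dose of scrambled siRNA and knockdown cannot be told apart in these differences.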

How the results depend on the processing

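The number of changed genes ranged from 4855 to 6847 over all alternatives, against 6680, and its division into higher and lower moved little with scaling (3279 and 3393 with TMM factors, 3444 and 3272 with upper-quartile factors). Leaving out 1 library gave 6013 to 6634 changed genes and 2587 to 3516 genes whose change differed from the Sec24B knockdown. On recovered reads edgeR called 6665, DESeq2 6663 and limma-voom 6586 genes; 6451 and 6383 of the 6680 were called in the same direction by edgeR and DESeq2. Of 208 named genes that passed, 200 kept call and direction under every alternative listed. With both scrambled groups pooled Rsad2 (0.43), Ifi44 (0.41), Irf7 (0.30), Isg15 (0.22), B2m (0.18) and Cdc20 (-0.24) no longer passed. Without triple replicates 1 and 5 the calls of Rplp0 (0.15) and Eef2 (0.19) ended, and Eef2 also lost its call when only the groups compared were fitted and without triple replicate 5 (0.21), control replicate 1 (0.21) or control replicate 5 (0.24). The sign of Sec24d, which passed under no alternative, turned without triple replicate 1 (0.12; range -0.21 to 0.12 leaving out 1 library) and without replicates 1 and 5 (0.19), and that of the Sec24b difference between knockdowns turned without triple replicate 1 (0.04; range -0.14 to 0.04) and without replicates 1 and 5 (0.14), a setting chosen for the differences after seeing the data. The Ccn2 difference, which did not pass, turned without 50 nM scrambled replicate 4 (-0.01; range -0.01 to 0.31 leaving out 1 library). Called values also moved by over 1.5 times with pooled controls for Spp1 (-1.05), Ccn2 (-0.75), Actg1 (-0.35), Prickle1 (-0.60), Lcn2 (0.84), H2-K1 (0.68), Cd68 (-0.61), Gusb (-0.27), Ergic1 (-0.18) and Soat1 (0.16). They did so without triple replicates 1 and 5 for Cope (0.33), Eif2ak4 (-0.26), Slc6a6 (-0.44), Atp2a2 (-0.21), Irf7 (0.37) and Isg15 (0.28, and 0.39 without replicate 1). Of 51 list counts of at least 5, 10 moved by over 1.5 times under some alternative, and those not given above include rises of lysosome genes (12, or 7 with only the groups compared) and of proteasome genes (5, and 3 to 8). The cause was not tested.

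Deviations of same-numbered control and triple libraries correlated at -0.133, -0.275, 0.063, 0.094 and -0.003. Each value lay below the highest correlation with another number, but the highest of several values tends to exceed a single one by construction. Whether the replicate numbers pair the samples was not tested. The replicate block was fitted on the 10 compared libraries only, where 5500 genes passed without a block. With the block 4855 genes passed (2342 higher, 2513 lower), 4825 of them among the 6680 in the same direction. Under this replicate block Eef2 and Rplp0 lost their calls, Eef2 also on these libraries without a block. The counts of risen Golgi structure genes (7), risen chaperones (5), fallen isomerases (3) and lysosome genes (5 risen, 3 fallen) were smaller than in the main fit. Without a block these libraries gave 8 risen Golgi structure genes, 7 risen chaperones, 5 fallen isomerases and 7 risen lysosome genes. Depth of 9101855 reads and more limits the precision for genes with few reads such as Fgf21.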
